A study of Homo sapiens with 6 samples.

Results

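The protocadherins are the largest family of cadherin-type adhesion molecules, and 66 of their protein-coding genes were measured here among the 33841 genes of the deposited count table. Members were taken by gene name and biotype: 15 genes of the alpha cluster, 16 of the beta cluster, 22 of the gamma cluster and 13 non-clustered genes. The 53 clustered genes lie on chromosome 5 between positions 140786136 and 141512981 of the hg38 build, all on the plus strand. RNA came from LN229, an established human glioblastoma cell line, either wild type (WT, PARP3+/+) or with both copies of PARP3 disrupted by CRISPR/Cas9 (PARP3KO), with 3 biological replicates of each genotype. PARP3 encodes a poly(ADP-ribose) polymerase that acts in DNA repair and gene regulation, and the comparison asks which transcripts differ when it is lost. The knockout cells are a clonal line and the sources do not name the clone that was sequenced, so genotype and clone cannot be told apart in these libraries. All cells grew unstimulated in MEM with fetal bovine serum and gentamicin.

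Each alpha and gamma gene has its own promoter and a large first exon that encodes the whole extracellular and membrane part, and this exon is spliced to constant exons that all genes of the cluster share. Beta genes are single-exon and have no constant part. Single neurons switch on a few of these promoters, largely at random, and the resulting mixtures of isoforms recognise the same mixture on other cells, which lets neurites of one neuron avoid each other. Promoter choice is tied to DNA methylation and to looping by CTCF and cohesin, and the last genes of the alpha and gamma clusters (the C-type genes) are under separate control. Non-clustered protocadherins are encoded on several chromosomes, most of them of the delta group, and act in cell sorting and axon growth. In bulk RNA, fewer cells that use a promoter and less RNA per cell cannot be told apart.

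The libraries held between 29692065 and 46010369 counts, of which 19156 to 25978 fell in protocadherins other than PCDH11Y. Levels are given as CPM, counts per 1000000 counts of the scaled library, and 3 counts corresponded to 0.0673 to 0.0996 CPM depending on the library. PARP3 itself had 1273, 942 and 995 counts in WT and 574, 1004 and 736 in PARP3KO, so the genotypes overlapped (log2 fold change -0.42 ± 0.18 SE, adjusted p = 0.307; with the replicate number as a block -0.39 ± 0.13, adjusted p = 0.0469). Counts over the whole gene include exons outside the disruption, so they test the genotype labels only in part. Of the markers of the line, VIM, NES, TNC and CD44 were abundant, from 480 to 4129 mean CPM. GFAP had 1 to 17 counts. S100B and FABP7, glial markers, were at 194 and 62.2 mean CPM in WT and at 93.1 and 25.5 in PARP3KO (adjusted p = 0.0256 and 0.0577). SOX2 (38.8 against 31.0), OLIG2 (13.7 against 9.53), NES, CD44 and GFAP also had lower means in PARP3KO. The means of VIM (3760 against 4129), TNC (832 against 835) and EGFR (57.2 against 59.2) were not lower. The part of these marker differences in the results was not tested. Of 10 markers of blood, endothelial, epithelial, neuronal and oligodendrocyte cells, 8 had no more than 16 counts in any library, while SYT1 (1787 to 3953 counts) and MBP (237 to 385 counts) were expressed. Library 1 of each genotype stood apart from the other two in its counts, and results are given with the replicate number in the model where that changed a call.

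Transcript levels differed widely within each cluster. Union-mode counting leaves out reads in exons that several genes share. Levels of different genes were therefore compared as CPM per kilobase of exon that no other gene of the table overlaps on the same strand ("own exon"). Overlaps with genes on the opposite strand were not taken out of this length. In the annotation used for length, every alpha gene shares 2869 to 3431 exon bases with others and every gamma gene 2177 to 4443. Reads in bases that were shared in the annotation used for counting are not in their counts. Genes annotated with long alternative ends, such as PCDHA10 with 12653 own bases and PCDHA4 with 10557, receive low values on this scale.

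In WT cells the 15 alpha genes ranged from 0.0539 to 2.22 CPM per own kilobase with a median of 0.703. All 15 were detected with more than 3 counts in every library. PCDHA7 was highest (2.22 ± 0.19 SD, n = 3), followed by PCDHA3 (1.87 ± 0.15) and PCDHA6 (1.75 ± 0.23). The standard deviations of PCDHA3 and PCDHA6 overlapped. PCDHA9 was lowest.

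The beta cluster was expressed more strongly, with a median of 1.88 CPM per own kilobase and 12 of 16 genes at 1 or more. PCDHB5 (8.70 ± 1.99), PCDHB2 (8.54 ± 0.89) and PCDHB16 (7.34 ± 0.74) led and did not differ beyond their spread. PCDHB8 and PCDHB7 followed. PCDHB1, the first gene of the cluster, was lowest at 0.0840.

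The gamma cluster was dominated by 1 gene. PCDHGC3, a C-type gene, reached 24.0 ± 5.7 CPM per own kilobase in WT and 31.0 ± 4.3 in PARP3KO, the highest level of any protocadherin, and made up 67.5% of all gamma counts in WT and 68.8% in PARP3KO. The median of the 22 genes was 0.415, and only 3 genes (PCDHGC3, PCDHGB2 and PCDHGB7) were at 1 or more in WT. The other C-type genes, PCDHGC4 and PCDHGC5, were at 0.745 ± 0.28 and 0.529 ± 0.24.

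Among the non-clustered genes, PCDH1 (13.6 ± 1.7 CPM per own kilobase in WT), PCDH17 (3.63 ± 0.20) and PCDH9 (2.54 ± 0.61) were highest, and PCDH18, PCDH10 and PCDH7 were at 1.37, 1.21 and 0.606. PCDH12, an endothelial protocadherin, had 10 to 22 counts. PCDH8, PCDH11X, PCDH15, PCDH19 and PCDH20 had at most 5 counts in any library, and levels that low were not compared.

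**Figure D1:**
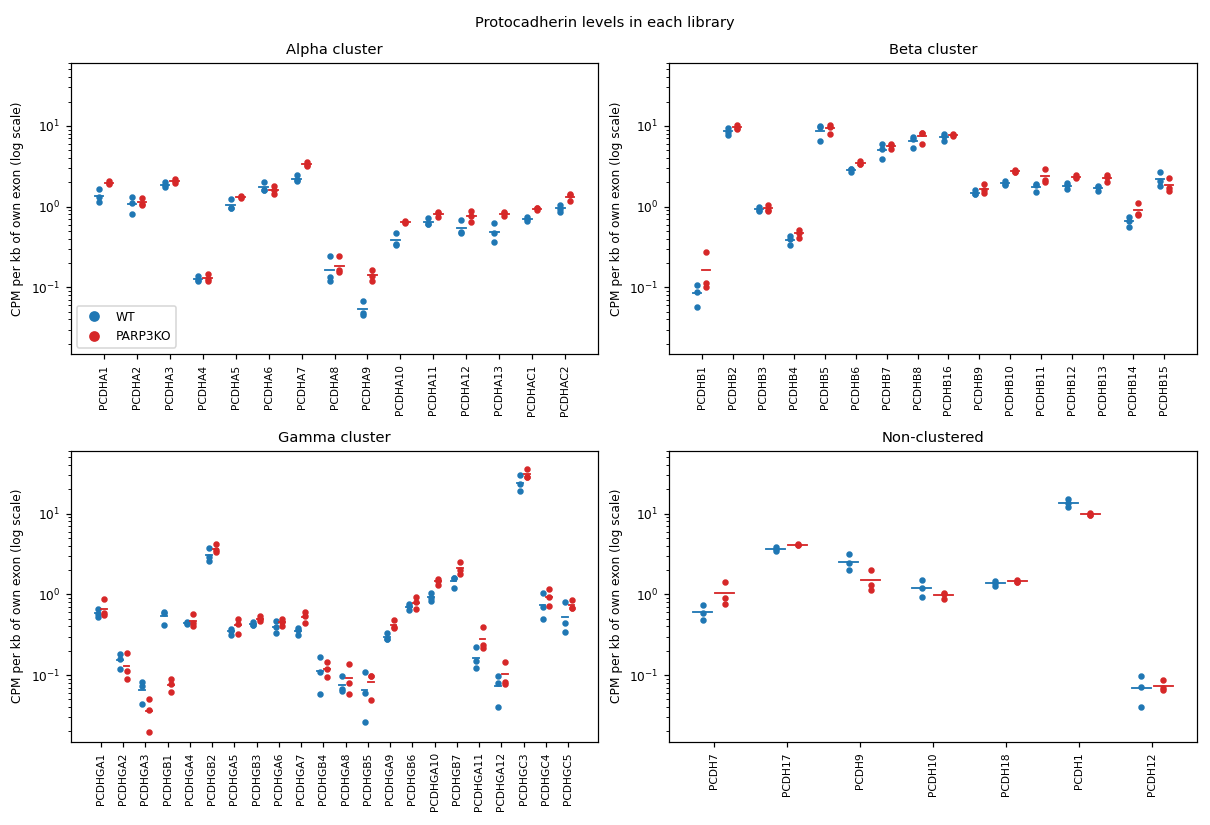
Level of each protocadherin in each library, as CPM per kilobase of own exon on a log axis, with clustered genes in chromosomal order and a short line at the mean of the 3 libraries of each genotype. PCDHGC3 stands above all other genes, PCDHGB1 is the gene whose PARP3KO points lie far below its WT points, and the 7 tested non-clustered genes are shown.

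Of the 66 genes, 58 had enough counts to be compared between genotypes in edgeR, by a quasi-likelihood fit whose p-values were adjusted (Benjamini-Hochberg) over all 17144 tested genes. PCDHGA3 (2 to 8 counts), PCDHGA12 (4 to 12 counts) and 6 non-clustered genes were not tested. At an adjusted p under 0.05, 4 protocadherins differed (6.90% of those tested), and 4.70% of all tested genes did. PCDHGB1 was lower in PARP3KO (1 gene; 3.33% of all tested genes were lower), and PCDHA9, PCDHA7 and PCDHB10 were higher (3 genes; 1.36% of all tested genes were higher). By DESeq2, 7 of the 58 protocadherins passed, 2 of them lower and 5 higher. Among the 17144 tested genes, 791 were lower and 467 higher by DESeq2. Over all 22686 genes to which DESeq2 gave an adjusted p, 5.93% passed, 3.84% lower and 2.09% higher. With the replicate number as a block, 24 protocadherins passed (41.4%), against 24.3% of all tested genes. Of these, 20 were higher, where 11.8% of all tested genes were higher, and 4 were lower, where 12.5% were lower.

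PCDHGB1, a B-subfamily isoform of the gamma cluster, showed the largest fold change of the tested members. It had 39, 66 and 63 counts in the WT libraries and 7, 9 and 6 in the PARP3KO libraries. All PARP3KO libraries lay below all WT libraries, and none was at 0. Mean levels were 1.39 ± 0.28 CPM in WT and 0.198 ± 0.037 CPM in PARP3KO (SD, n = 3 each), a fitted difference of -2.81 ± 0.28 on the log2 scale or 7.02-fold lower (adjusted p = 0.00234; with the block -2.83 ± 0.28, adjusted p = 4.82e-05). Its share of gamma counts went from 1.27% to 0.135%. The gene was called without each of the 6 libraries in turn, with adjusted p from 0.00194 to 0.0205. Per own kilobase it ranked 8th of 22 gamma genes in WT.

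Its tested neighbours on the chromosome passed in neither fit. PCDHGA4, the next gene downstream, had 42, 50 and 50 counts in WT and 46, 54 and 41 in PARP3KO (0.09 ± 0.19, adjusted p = 0.899). PCDHGB2, the gene after that, had 360, 284 and 315 counts in WT and 330, 421 and 330 in PARP3KO (0.26 ± 0.17, adjusted p = 0.544). PCDHGA3, the gene upstream, had 8, 5 and 8 counts against 3, 6 and 2, which was too few to test. Both tested neighbours lie downstream and had positive fold changes and overlapping genotypes. PCDHGA2, the gene before PCDHGA3, had a negative value (-0.26) and passed in neither fit. The other 6 tested B-subfamily genes lay between 0.15 and 0.51 on the log2 scale.

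**Figure D2:**
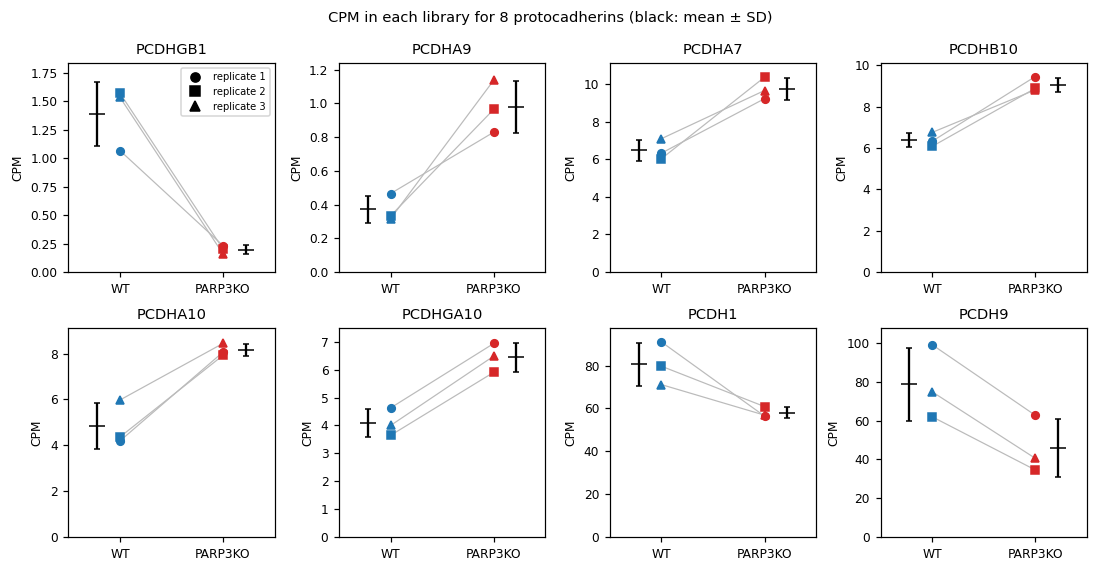
CPM in each of the 6 libraries for 8 protocadherins, with grey lines joining libraries of the same replicate number and black bars for mean ± SD of 3 libraries. PCDHGB1 shows the largest drop of the 8 as a fold change, though not in CPM, and PCDH9 is the only one whose genotypes overlap, although each of its 3 joined pairs goes down.

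Promoter sequences are shown for PCDHGB1, which fell, and the genes on either side of it, and for PCDHGC3, the most abundant member, and genes that rose with or without the block, for comparison. Clustered protocadherin promoters carry a conserved element with the core CGCT, which overlaps sites bound by CTCF. Each line gives the 100 bases before the RefSeq transcription start, 5′ to 3′ on the plus strand, with every CGCT in capitals (RefSeq, GRCh38.p14).
PCDHGA3, chr5:141343729-141343828: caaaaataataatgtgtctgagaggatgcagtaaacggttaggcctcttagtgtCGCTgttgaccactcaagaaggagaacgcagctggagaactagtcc
PCDHGB1, chr5:141349999-141350098: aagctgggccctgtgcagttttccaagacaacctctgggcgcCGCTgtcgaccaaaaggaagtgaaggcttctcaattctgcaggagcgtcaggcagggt
PCDHGA4, chr5:141354921-141355020: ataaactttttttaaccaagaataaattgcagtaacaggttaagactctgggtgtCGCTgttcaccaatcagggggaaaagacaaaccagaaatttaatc
PCDHGA10, chr5:141412887-141412986: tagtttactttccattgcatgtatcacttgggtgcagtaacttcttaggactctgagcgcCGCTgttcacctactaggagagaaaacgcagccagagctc
PCDHGC3, chr5:141475866-141475965: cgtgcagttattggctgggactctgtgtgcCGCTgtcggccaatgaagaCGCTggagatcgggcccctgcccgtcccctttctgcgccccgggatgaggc
PCDHA7, chr5:140834169-140834268: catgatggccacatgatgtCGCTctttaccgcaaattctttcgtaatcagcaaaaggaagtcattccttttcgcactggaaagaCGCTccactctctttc
PCDHA10, chr5:140855797-140855896: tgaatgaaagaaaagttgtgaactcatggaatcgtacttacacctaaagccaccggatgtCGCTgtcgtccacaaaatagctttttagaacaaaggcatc
PCDHB10, chr5:141192253-141192352: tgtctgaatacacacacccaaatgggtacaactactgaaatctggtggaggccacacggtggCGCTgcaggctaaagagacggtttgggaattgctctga

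The core lay 58 bases before the start of PCDHGB1, 46 before that of PCDHGA3 and 45 before that of PCDHGA4, so the gene that fell and both of these adjacent genes carried it. The 100 bases before the RefSeq start of PCDHGB2, which lies 94 bases inside the gene of the count table, held none and are not shown. A promoter window of 300 bases, 250 of them before the start, was found for 57 of the 65 genes other than PCDH11Y, 47 of them clustered. CGCT on either strand was present in 46 of the 47 clustered windows (97.9%) and in 9 of the 10 non-clustered ones, against 70.0% of all 35116 promoters in the table. On the forward strand between 30 and 80 bases before the start, a range chosen after the positions were seen, it was present in 40 of 47 clustered promoters (85.1%), in 2 of 10 non-clustered ones and in 15.3% of all promoters. CCCTC, a part of many CTCF motifs, was found on either strand in 12 of 47 clustered windows (25.5%) and in 71.2% of all, GCGCGC in 3 of 47 (6.38%) and in 18.8% of all, and TATAAA in 6 of 47 (12.8%) and in 11.5% of all. The RefSeq start of PCDHA9 lies 919 bases inside the gene of the count table, so its window is not shown. These letters are a description and not evidence of binding.

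In the alpha cluster, 2 of 15 genes were higher in PARP3KO (13.3%, beside 1.36% of all tested genes) and none was lower. At an unadjusted p under 0.05, 0 were lower and 7 higher. By DESeq2, 0 were lower and 3 higher, where 467 of the 17144 tested genes were higher. The share of all tested genes at an unadjusted p under 0.05 was not counted, so such counts, here and below, have no background to be read against. PCDHA9 had 17, 14 and 13 counts in WT and 25, 43 and 43 in PARP3KO. Its libraries did not overlap between genotypes and the means were 0.372 ± 0.081 and 0.978 ± 0.155 CPM (1.40 ± 0.25 on the log2 scale, 2.64-fold higher, adjusted p = 0.0248). It was the scarcest alpha gene per own kilobase in WT, and its rise rests on few counts. PCDHA7, the most abundant alpha gene per own kilobase, had 231, 253 and 291 counts in WT and 278, 462 and 365 in PARP3KO, or 6.33, 6.03 and 7.10 CPM against 9.23, 10.4 and 9.66. Every PARP3KO library was above every WT library (0.59 ± 0.12, 1.50-fold higher, adjusted p = 0.0363). Leaving out any 1 of the 6 libraries ended this call (adjusted p from 0.0571 to 0.174), and that of PCDHA9 ended without the second or the third library of either genotype (adjusted p from 0.0994 to 0.134).

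PCDHA10 missed the threshold without the block. Its levels were 4.19, 4.36 and 5.97 CPM in WT and 8.07, 7.92 and 8.44 in PARP3KO, with no overlap (0.75 ± 0.16, adjusted p = 0.0514; with the block 0.76 ± 0.11, adjusted p = 0.000679). With the block, 7 alpha genes were higher (46.7%, beside 11.8% of all tested genes): PCDHA1, PCDHA7, PCDHA9, PCDHA10, PCDHA13 and the C-type genes PCDHAC1 and PCDHAC2. The 5 of these that passed only with the block had log2 fold changes of 0.43 to 0.75. PCDHAC2, for example, went from 3.12 ± 0.28 to 4.38 ± 0.41 CPM (0.49 ± 0.14, adjusted p = 0.134; with the block 0.49 ± 0.12, adjusted p = 0.0116).

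The alpha genes had a median log2 fold change of 0.43, and 14 of 15 were positive. Over all tested genes the median was -0.01, and 48.7% were positive. All 3 PARP3KO libraries exceeded all 3 WT libraries for 9 of the 15 (60.0%), where 10.8% of all tested genes did so. By position, the first 6 genes, PCDHA1 to PCDHA6, had a median of 0.11, and the 9 from PCDHA7 to PCDHAC2 had a median of 0.50, a division made after the values were seen. PCDHA6 was the only alpha gene with a negative value (-0.12 ± 0.15, adjusted p = 0.818).

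In the beta cluster, 1 of 16 genes was higher in PARP3KO (6.25%, beside 1.36% of all tested genes) and none was lower. At an unadjusted p under 0.05, 0 were lower and 4 higher, counts without a background. By DESeq2 0 were lower and 1 higher, where 467 of the 17144 tested genes were higher. The gene called without the block was PCDHB10. It had 231, 255 and 277 counts in WT and 285, 396 and 333 in PARP3KO, or 6.39 ± 0.34 against 9.05 ± 0.35 CPM (0.50 ± 0.11, 1.42-fold higher, adjusted p = 0.0464). The genotypes did not overlap, and leaving out any 1 of the 6 libraries ended the call (adjusted p from 0.0739 to 0.177), as did leaving out the filter on low counts (adjusted p = 0.0881). PCDHB1, PCDHB6, PCDHB8, PCDHB11, PCDHB12 and PCDHB13 passed as well with the block, at log2 fold changes of 0.21 to 0.93. With PCDHB10 that made 7 of 16 beta genes higher (43.8%, beside 11.8% of all tested genes).

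PCDHB11, PCDHB12 and PCDHB13 follow PCDHB10 on the chromosome, and for all 4 genes every PARP3KO library was above every WT library. That held for 6 of the 16 beta genes (37.5%) and for 10.8% of all tested genes. PCDHB12 went from 7.06 ± 0.60 to 9.11 ± 0.38 CPM (0.37 ± 0.11, adjusted p = 0.149; with the block 0.37 ± 0.09, adjusted p = 0.0154). PCDHB13 went from 8.65 ± 0.62 to 11.4 ± 1.1 CPM (0.40 ± 0.12, adjusted p = 0.131; with the block 0.39 ± 0.10, adjusted p = 0.0126).

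The most abundant beta genes had small differences. PCDHB5 had 21.9, 32.9 and 34.2 CPM in WT and 27.3, 34.7 and 33.4 in PARP3KO, and PCDHB16 had 23.8, 27.5 and 29.1 against 28.6, 28.1 and 27.7. For both, the first WT library was the lowest and the genotypes overlapped. PCDHB2 (0.17 ± 0.10, adjusted p = 0.479) and PCDHB7 (0.16 ± 0.16, adjusted p = 0.743) did not pass in either fit. The median of the 16 beta genes was 0.24 and 15 were positive, the exception being PCDHB15 (-0.25). Beta genes are close in sequence, and reads of 50 bases that match several of them are not counted, so their values rest on the positions where they differ.

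In the gamma cluster, none of the 20 tested genes was higher without the block. PCDHGB1 alone was lower (5.00% of the 20, beside 3.33% of all tested genes). At an unadjusted p under 0.05, 4 were higher, a count without a background. By DESeq2 1 was higher, where 467 of the 17144 tested genes were higher. PCDHGA10 missed the threshold, with 169, 153 and 164 counts in WT and 209, 263 and 245 in PARP3KO, or 4.09 ± 0.50 against 6.44 ± 0.52 CPM (0.65 ± 0.14, adjusted p = 0.0517; with the block 0.66 ± 0.10, adjusted p = 0.000954). All PARP3KO libraries were above all WT libraries. PCDHGA7, PCDHGB7 and PCDHGC3 also passed with the block only.

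PCDHGC3 had 97.9, 61.4 and 75.0 CPM in WT and 117, 93.4 and 92.1 in PARP3KO. The first library was the highest in both genotypes, and the genotypes overlapped (0.37 ± 0.18, adjusted p = 0.398). Within replicate numbers the log2 ratios were 0.25, 0.60 and 0.30, and the gene passed with the block (0.38 ± 0.07, adjusted p = 0.00194). The median of the 20 gamma genes was 0.26 (0.17 to 0.42 with 1 library left out) and 18 were positive. Apart from PCDHGB1, only PCDHGA2 was negative (-0.26).

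Over the 51 tested clustered genes, 47 had positive log2 fold changes, with a median of 0.29, and 31 (60.8%) were higher in all 3 pairs of same-numbered libraries, as were 27.2% of all tested genes. The 3 pair medians were 0.39, 0.46 and 0.15. Without the block 3 of the 51 were higher (5.88%, beside 1.36% of all tested genes) and with it 18 (35.3%, beside 11.8%). The members share a chromosomal region and libraries, so they are not independent and these counts are a description.

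**Figure D3:**
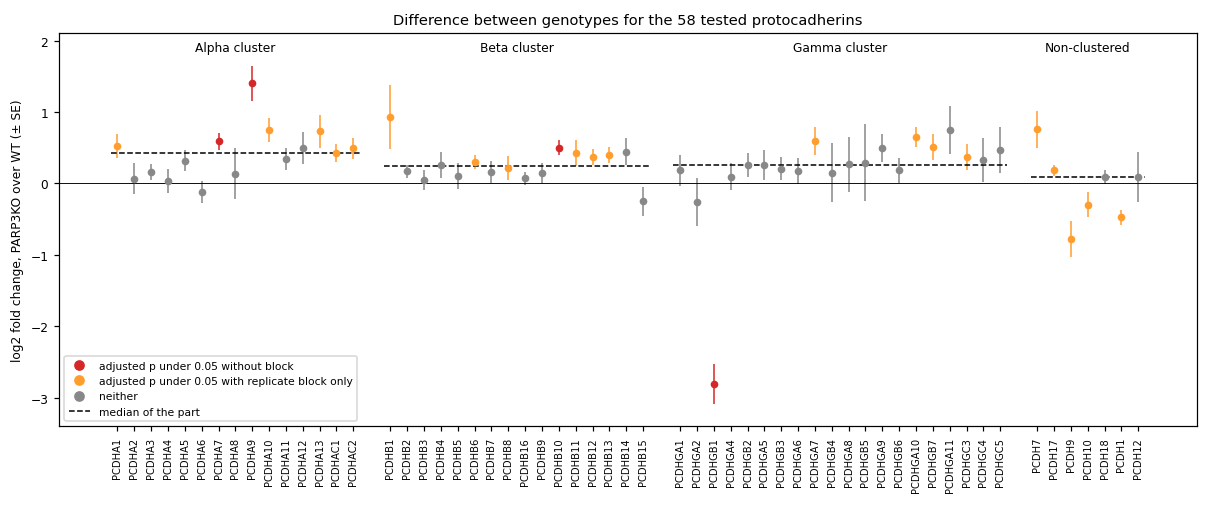
Log2 fold change of PARP3KO over WT with its standard error for the 58 tested protocadherins, the clustered ones in chromosomal order. Colours show whether the gene passed an adjusted p of 0.05 without the replicate block, with it only, or in neither fit. Dashed lines mark the medians of 0.43, 0.24, 0.26 and 0.09 of the 4 groups, of which the last turned negative by DESeq2 (-0.10), without a filter (-0.30) and at a mean count of at least 50 (-0.11), and PCDHGB1 at -2.81 lies alone below the other clustered genes.

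No non-clustered protocadherin passed without the block. With it 5 of 7 passed (24.3% of all tested genes did), 3 lower (12.5% of all) and 2 higher (11.8% of all). At an unadjusted p under 0.05, 2 were lower and 2 higher, counts without a background. By DESeq2 1 was lower, where 791 of the 17144 tested genes were lower. PCDH1, a delta protocadherin and the highest non-clustered gene per own kilobase, had 3324, 3345 and 2917 counts in WT and 1700, 2712 and 2149 in PARP3KO, or 80.6 ± 10.0 against 58.1 ± 2.5 CPM. All PARP3KO libraries lay below all WT libraries, where 12.0% of all tested genes did so (-0.47 ± 0.10, 1.39-fold lower, adjusted p = 0.0531; with the block -0.47 ± 0.07, adjusted p = 0.000633). PCDH1 lies on the minus strand of chromosome 5 at positions 141853111 to 141879246, beyond the end of the gamma cluster.

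PCDH9, another delta protocadherin, had 3615, 2599 and 3067 counts in WT and 1889, 1540 and 1532 in PARP3KO. In CPM these were 99.0, 61.9 and 74.8 against 62.7, 34.6 and 40.6, so the first PARP3KO library exceeded the lowest WT library and the genotypes overlapped (-0.78 ± 0.26, adjusted p = 0.184). Every same-numbered pair was lower in PARP3KO, by log2 ratios of -0.66, -0.84 and -0.88, and the gene passed with the block (-0.79 ± 0.06, adjusted p = 4.32e-06).

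PCDH7, the third tested member of the same delta subgroup, went the other way. It had 9.61, 6.27 and 7.58 CPM in WT and 18.3, 11.5 and 9.93 in PARP3KO, without overlap (0.76 ± 0.26, adjusted p = 0.203; with the block 0.74 ± 0.11, adjusted p = 0.000627). PCDH10 was at 12.3 ± 2.8 against 10.0 ± 0.9 CPM (-0.30 ± 0.18, adjusted p = 0.509; with the block -0.29 ± 0.09, adjusted p = 0.0450). PCDH17 was at 30.5 ± 1.7 against 34.6 ± 0.6 CPM (0.18 ± 0.07, adjusted p = 0.285; with the block 0.18 ± 0.06, adjusted p = 0.0477). PCDH18 and PCDH12 passed in neither fit. The median of the 7 genes, 0.09, ranged from -0.12 to 0.11 with 1 library left out.

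Summed over each group, alpha genes made up 48.6 ± 5.9 CPM in WT and 63.5 ± 1.4 CPM in PARP3KO, beta genes 189 ± 18 and 216 ± 5, and gamma genes 115 ± 23 and 146 ± 20. The non-clustered genes other than PCDH11Y went from 220 ± 25 to 172 ± 17 CPM, most of it from PCDH1 and PCDH9. Each of the 3 alpha, beta and gamma sums was higher in PARP3KO in every same-numbered pair, and the non-clustered sum was lower in every pair. The alpha sums did not overlap between genotypes (44.6 to 55.4 against 61.9 to 64.4), nor did the beta sums (170 to 207 against 212 to 221). The gamma sums did.

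**Figure D4:**
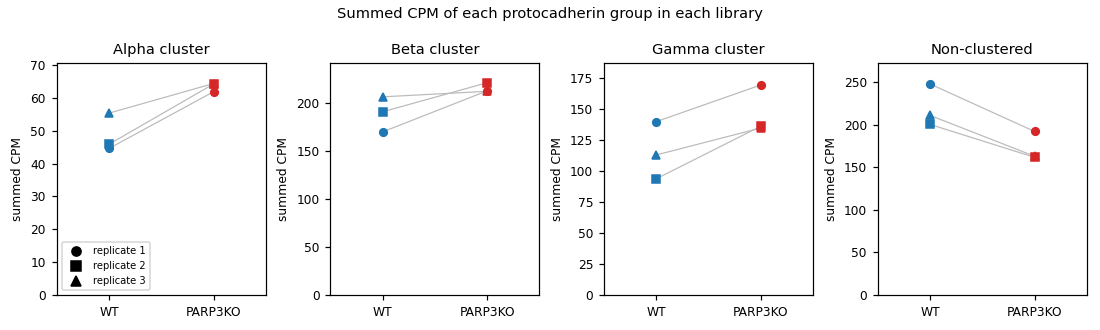
Summed CPM of the alpha, beta, gamma and non-clustered protocadherins in each library, with grey lines joining libraries of the same replicate number. The 3 clusters lie higher in PARP3KO in each pair and the non-clustered group lies lower.

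Other genes of the same region had a median near 0. Of 36 protein-coding genes between the clusters or within 1 Mb of them, 30 were tested. None passed without the block (0 at an unadjusted p under 0.05, and 0 by DESeq2), their median log2 fold change was -0.01, and 14 were positive. With the block 4 were higher (DIAPH1, HDAC3, TAF7 and FCHSD1), or 13.3% beside the 11.8% of all tested genes, and none was lower. TAF7, a gene for a transcription factor subunit and the one tested gene between the clusters, was at 188 ± 31 CPM in WT and 210 ± 26 in PARP3KO (0.16 ± 0.15, adjusted p = 0.716; with the block 0.17 ± 0.05, adjusted p = 0.0355). The other 783 tested genes of chromosome 5 had a median of -0.04.

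Genes that control the clusters were then listed: CTCF and cohesin with their loaders and release factors, the methyltransferases G9a and GLP (EHMT2 and EHMT1) with WIZ, the silencers SMCHD1 and SETDB1, and the DNA methylation enzymes. All 31 were tested. None passed without the block, and their median log2 fold change was -0.03. At an unadjusted p under 0.05, 1 was lower and 1 higher, counts without a background. By DESeq2 TET1 alone was lower, where 791 of the 17144 tested genes were lower. With the block TET1 and DNMT3B were lower and LRIF1 and EZH2 were higher, or 12.9% of the list beside the 24.3% of all tested genes. TET1, which oxidises methylated cytosine, had 262, 297 and 297 counts in WT and 170, 227 and 177 in PARP3KO, or 7.17 ± 0.08 against 5.14 ± 0.48 CPM (-0.48 ± 0.12, adjusted p = 0.0814; with the block -0.48 ± 0.10, adjusted p = 0.00586). DNMT3B, a methyltransferase, was at 16.3 ± 4.6 against 12.7 ± 1.8 CPM with overlapping genotypes (-0.36 ± 0.23, adjusted p = 0.529; with the block adjusted p = 0.0184).

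Among 24 genes for intracellular partners of protocadherins (focal adhesion kinases, the WAVE complex, proteases and adaptors), 2 were lower without the block and none was higher. The 2 are 8.33% of the list, beside 3.33% of all tested genes. At an unadjusted p under 0.05, 5 were lower and 3 higher, counts without a background. By DESeq2 2 were lower and 1 higher, where 791 of the 17144 tested genes were lower and 467 higher. DAB1, an adaptor of reelin signalling, had 144, 185 and 137 counts in WT and 22, 21 and 24 in PARP3KO, with every PARP3KO library below every WT library (-2.68 ± 0.22, adjusted p = 0.0011). CYFIP2, a WAVE complex subunit, was at 18.2 ± 0.2 against 13.1 ± 0.9 CPM (-0.47 ± 0.09, adjusted p = 0.0313), and lost its call without the second or the third library of either genotype (adjusted p from 0.105 to 0.171). Its paralogue CYFIP1 was at 163 ± 2 against 184 ± 3 CPM (0.18 ± 0.07, adjusted p = 0.239; with the block adjusted p = 0.0185). With the block 5 partners were lower (20.8%, beside 12.5% of all tested genes) and 4 higher (16.7%, beside 11.8%), and the median of the list was 0.04.

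**Figure D5:**
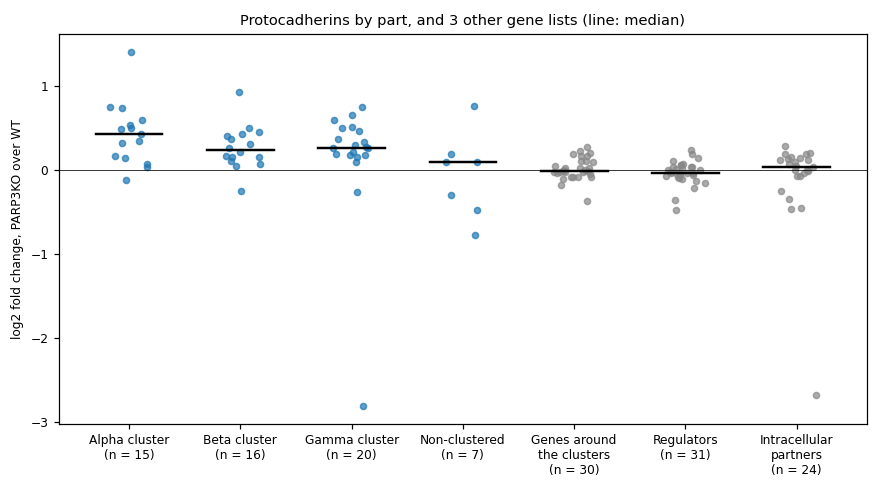
Log2 fold change of PARP3KO over WT for each tested gene of the alpha, beta, gamma and non-clustered protocadherins (blue) and of 3 other lists (grey), with a line at each median. The medians of the clusters are 0.43, 0.24 and 0.26, those of the genes around the clusters, the regulators and the partners are -0.01, -0.03 and 0.04, and the low points are PCDHGB1 and DAB1.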

How the data were processed

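Total RNA depleted of ribosomal RNA was sequenced from 3 WT and 3 PARP3KO cultures of LN229 as stranded 50-base single reads. The labels call the molecule polyA RNA, whereas the protocol describes ribosomal RNA removal. Per the submitters' processing notes and the study's methods, the authors trimmed reads with cutadapt 1.10, removed ribosomal reads with Bowtie2 2.2.8, aligned to hg38 with STAR 2.5.3a, and counted with HTSeq 0.6.1p1 in union mode on Ensembl annotation. The strand setting of counting is not given in the sources used here. The deposited raw counts were used. The table also holds 12 columns of the authors' normalized values (with and without division by transcript length) and the authors' own DESeq2 comparison, with fold changes and p-values; none of these was used.

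The members and the gene lists were chosen with earlier results of these data known. The main test was edgeR 4.0.16 (R 4.3.3), quasi-likelihood, with TMM scaling, filterByExpr at a minimum count of 10 and Benjamini-Hochberg adjustment over 17144 genes; an adjusted p under 0.05 was called. CPM are counts over the TMM-scaled library size, and SE is that of the log2 fold change. Own exon lengths come from a GENCODE release on GRCh38 that is later than the Ensembl annotation used for counting. The exons measured for length can therefore differ from those counted, and levels per own kilobase are approximate. Named members were those called with or without the replicate block, and the 5 with the highest mean CPM of each group; other members named (untested or scarce genes, neighbours of PCDHGB1, C-type genes, genes with negative values or long exons) were picked after values were seen. The scripts were tested on simulated counts.

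Deviations from the genotype means correlated at 0.676, 0.517 and 0.242 between same-numbered libraries and from -0.628 to 0.410 between others. The third PARP3KO library correlated more with the second WT library (0.410) than with the third (0.242), so pairing by number was not clear for it. The labels give the numbers and no shared batch. The fit with the replicate block is therefore given as an alternative, and whether the libraries are paired was not established. Promoters come from RefSeq GRCh38.p14. Alternatives were DESeq2 1.42.0, median-of-ratios scaling, 2 other filters, stricter criteria, the replicate block and leaving out libraries. Near-identical members and genes that overlap others can lose reads in counting, so their levels are uncertain.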

Additional observations from a re-analysis of the deposited data

How the results depend on the processing

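PCDHGB1 was lower, with an adjusted p under 0.05, under every alternative that tested it; a mean count of at least 50 left it and PCDHA9 out of the test. With the replicate number as a block, 2143 of all tested genes were lower and 2023 higher, with 4 protocadherins lower and 20 higher (alpha 7, beta 7, gamma 5, non-clustered 5 called). In an alternative chosen after seeing the data, both first libraries were left out: 1739 and 1536 genes were called, with 4 protocadherins lower and 11 higher (alpha 5, beta 2, gamma 4, non-clustered 4), and PCDHB16 turned from 0.07 to -0.0223. DESeq2 gave 871 and 475 among the 22686 genes with an adjusted p in that fit, with 2 and 5 protocadherins (gamma 2, non-clustered 1). A mean count of at least 50 gave 331 lower and 172 higher genes, with 0 protocadherins lower and 1 higher (alpha 1, beta 0, gamma 0). Without a filter 724 genes were lower and 248 higher, with 2 protocadherins lower and 3 higher (alpha 3, beta 0, gamma 1, non-clustered 1). Under stricter criteria (adjusted p below 0.001 with a change of over 1 on the log2 scale), 76 genes were lower and 6 higher, and 0 protocadherins passed in any cluster; with the block added after seeing the data, 91 genes were higher and PCDHGB1 alone passed (0 alpha, 0 beta, 0 higher).

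Leaving out 1 library gave 281 to 606 lower and 49 to 259 higher genes, with 1 to 2 protocadherins lower and 0 to 2 higher (alpha 0 to 1, beta 0 in each, gamma 1 to 2, non-clustered 0 to 1). Without PARP3KO replicate 2, PARP3KO replicate 3 or WT replicate 3 the higher genes numbered 52, 61 and 49; a genotype left with 2 libraries still gave a fit. Cluster medians ranged from 0.38 to 0.48 (alpha), 0.18 to 0.32 (beta) and 0.17 to 0.42 (gamma). The non-clustered median changed sign, from -0.12 to 0.11, and was -0.10 by DESeq2, -0.30 without a filter and -0.11 at a mean count of at least 50, where the number of genes in it differs. PCDHB5 and PCDHB16 ranged from -0.0788 to 0.21 and from -0.0099 to 0.13, below 0 without the first WT library. Median-of-ratios scaling changed no call among the genes named by rule. The cause of these changes was not tested. Low counts, as in PCDHGB1 and PCDHA9, limit the precision, and 3 cultures of a clone do not replicate the clone.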
